A study of Mus musculus with 4 samples.

Results

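Granzyme A, granzyme B, granzyme C, perforin and the granule membrane protein Nkg7 are components of the killing machinery of cytotoxic lymphocytes. The 5 genes (Gzma, Gzmb, Gzmc, Prf1, Nkg7) were taken by symbol from the array annotation, which gave each of them a single probe set and no probe set shared with another gene, out of 19938 genes with a symbol of their own. Their RNA was measured on 4 arrays of cells from C57BL/6 mice. Tcf1 cells (2 arrays, labelled as biological replicates) came from bone marrow LMPPs, progenitors with lymphoid and myeloid potential, that were given a retrovirus carrying Tcf1 (Tcf1-VEX) and grown on OP9, a stromal line without Notch ligand. Control cells (1 array) came from LMPPs given the VEX vector alone and grown on OP9-DL4, OP9 that presents the Notch ligand DL4. Both cultures received IL7 at 1 ng/ml and Flt3L at 5 ng/ml, were passaged at day 6 and were sorted on day 10 as live Thy1+ CD25+ cells without Mac1 or Gr1. LMPPs (1 array) were pooled wild-type lineage-negative Sca1+ Kit+ cells with high Flt3. They were kept for 48 hours in the cytokine medium used for transduction, with no vector stated. Vector and stroma differed together between Tcf1 and control cells, and culture time, stroma, sort gate and virus between either and LMPPs, so their effects cannot be told apart.

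Cytotoxic lymphocytes store granzymes, which are serine proteases, in secretory granules together with perforin, which opens the membrane of the target cell to them. Granzyme A cleaves after basic residues and granzyme B after aspartate, by which it activates caspases, while mouse granzyme C belongs to the cluster of genes next to granzyme B and is less well characterised. Nkg7 sits in the granule membrane and takes part in granule release. These genes are best known from NK cells and activated T cells, and early T lineage cells are not classed as cytotoxic.

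Upstream sequences of Gzma, Gzmb, Gzmc and Nkg7 are printed here because their signals were ordered differently over the arrays, whether or not a difference passed the test. Each is the 250 bases before the RefSeq transcription start (RefSeq, GRCm38.p6), 5′ to 3′ on the gene's strand: Gzma at chr13:113100982-113101231 (minus strand), Gzmb at chr14:56262335-56262584 (minus), Gzmc at chr14:56234658-56234907 (minus) and Nkg7 at chr7:43436888-43437137 (plus). Capitals mark matches, on either strand, to 6 short motifs: TGGGAA (RBPJ), CTTTG (TCF/LEF), TGTGGT (RUNX), AGGTGT (T-box), TGACGT (CRE) and TGAGTCA (AP-1).
Gzma: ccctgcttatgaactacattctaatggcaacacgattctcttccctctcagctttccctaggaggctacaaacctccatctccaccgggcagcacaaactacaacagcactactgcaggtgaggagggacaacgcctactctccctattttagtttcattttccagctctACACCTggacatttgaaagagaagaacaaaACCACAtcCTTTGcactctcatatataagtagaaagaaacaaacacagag
Gzmb: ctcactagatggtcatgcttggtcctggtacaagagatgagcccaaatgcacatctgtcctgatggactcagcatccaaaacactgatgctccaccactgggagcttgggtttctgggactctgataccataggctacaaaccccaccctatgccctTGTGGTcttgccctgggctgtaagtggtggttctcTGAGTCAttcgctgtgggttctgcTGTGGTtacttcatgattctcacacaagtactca
Gzmc: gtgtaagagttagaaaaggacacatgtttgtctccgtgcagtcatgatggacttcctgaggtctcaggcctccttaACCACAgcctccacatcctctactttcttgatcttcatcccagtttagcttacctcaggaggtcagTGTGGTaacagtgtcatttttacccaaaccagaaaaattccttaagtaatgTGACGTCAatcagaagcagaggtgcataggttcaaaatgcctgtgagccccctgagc
Nkg7: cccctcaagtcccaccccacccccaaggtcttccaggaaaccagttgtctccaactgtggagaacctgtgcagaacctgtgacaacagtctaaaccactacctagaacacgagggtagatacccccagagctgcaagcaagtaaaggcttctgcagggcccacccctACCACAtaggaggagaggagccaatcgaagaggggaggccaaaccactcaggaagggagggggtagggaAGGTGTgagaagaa

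All 5 genes had a RefSeq upstream window. The RUNX motif occurred in 5 of 5 windows, against 14% of 32851 upstream windows in the RefSeq table, and the T-box motif in 3 of 5 (Gzma, Prf1 and Nkg7), against 11.8%. The CRE motif occurred in 2 (Gzmc and Prf1), against 6.47%, and in Gzmc its matches on both strands overlap. The AP-1 motif occurred in Gzmb alone among the 5, against 4.46%, the TCF/LEF motif in Gzma alone, against 48.6%, and the RBPJ motif in Prf1 alone, against 21.6%. A match is a run of letters and not a bound site.

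Gzma was the member with the widest range. Its log2 signal was 7.89 and 7.94 in the Tcf1 arrays, 11.82 in the control array and 7.25 in the LMPP array. The control array stood far above the other arrays, and the Tcf1 arrays lay close together and a little above the LMPP array. Mean Gzma was 7.92 ± 0.036 (SD, n = 2) in Tcf1 cells, lower than in control cells by a difference of -3.91 (SE 0.16, adjusted p = 1.67e-04, limma), or 15.0-fold. Against LMPPs the difference was 0.66 (SE 0.16, 95% interval 0.28 to 1.05), higher in both Tcf1 arrays, and did not pass over all genes (adjusted p = 0.095, limma).

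Gzmb had another pattern. Its signal was 8.77 and 9.49 in Tcf1 cells, 9.34 in control cells and 6.95 in LMPPs. The control value fell between the Tcf1 replicates, and the Tcf1 and control arrays all lay above the LMPP array. Gzmb rose by 2.18 in Tcf1 cells against LMPPs (SE 0.29, adjusted p = 0.0105, limma), a 4.54-fold difference, with a Tcf1 mean of 9.13 ± 0.50 (SD, n = 2). Tcf1 and control cells differed by -0.21 (SE 0.29, 95% interval -0.89 to 0.47, adjusted p = 0.895, limma), an interval that does not settle the direction.

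Gzmc was brightest in the Tcf1 arrays. It read 6.56 and 7.61 in Tcf1 cells, 5.78 in control cells and 5.49 in LMPPs, so both Tcf1 arrays lay above both single arrays. The replicates were 1.06 apart, and only 0.266% of all genes differed between them by at least that much (1.39% for Gzmb, whose replicates were 0.71 apart). With a Tcf1 mean of 7.09 ± 0.75 (SD, n = 2), the difference from control cells was 1.30 (SE 0.39, adjusted p = 0.152, limma) and that from LMPPs 1.59 (SE 0.39, adjusted p = 0.0951, limma), and neither passed. With replicate 2 left out, the difference from control cells was 0.78, and with replicate 1 left out it was 1.83. Gzmc belongs to a cluster of close relatives, so its signal could be shared with another granzyme.

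Prf1, the gene for perforin, was nearly flat. Its signal was 7.35 and 7.49 in Tcf1 cells, 7.25 in control cells and 7.54 in LMPPs, a span of less than the distance between the Gzmb replicates. Mean Prf1 was 7.42 ± 0.10 (SD, n = 2) in Tcf1 cells, and it differed from control cells by 0.16 (SE 0.17, 95% interval -0.23 to 0.56, adjusted p = 0.829, limma). From LMPPs it differed by -0.12 (SE 0.17, 95% interval -0.52 to 0.28, adjusted p = 0.894, limma). Without detection calls, it is not known whether this signal was above background.

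Nkg7 read high on every array, with 11.54 and 11.76 in Tcf1 cells, 13.10 in control cells and 11.73 in LMPPs. The LMPP value lay between the Tcf1 replicates and the control array stood above all others. Nkg7 averaged 11.65 ± 0.15 (SD, n = 2) in Tcf1 cells and was lower than in control cells by a difference of -1.45 (SE 0.18, adjusted p = 0.00619, limma), or 2.73-fold. From LMPPs it differed by -0.07 (SE 0.18, 95% interval -0.49 to 0.34, adjusted p = 0.947, limma).

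**Figure D1:**
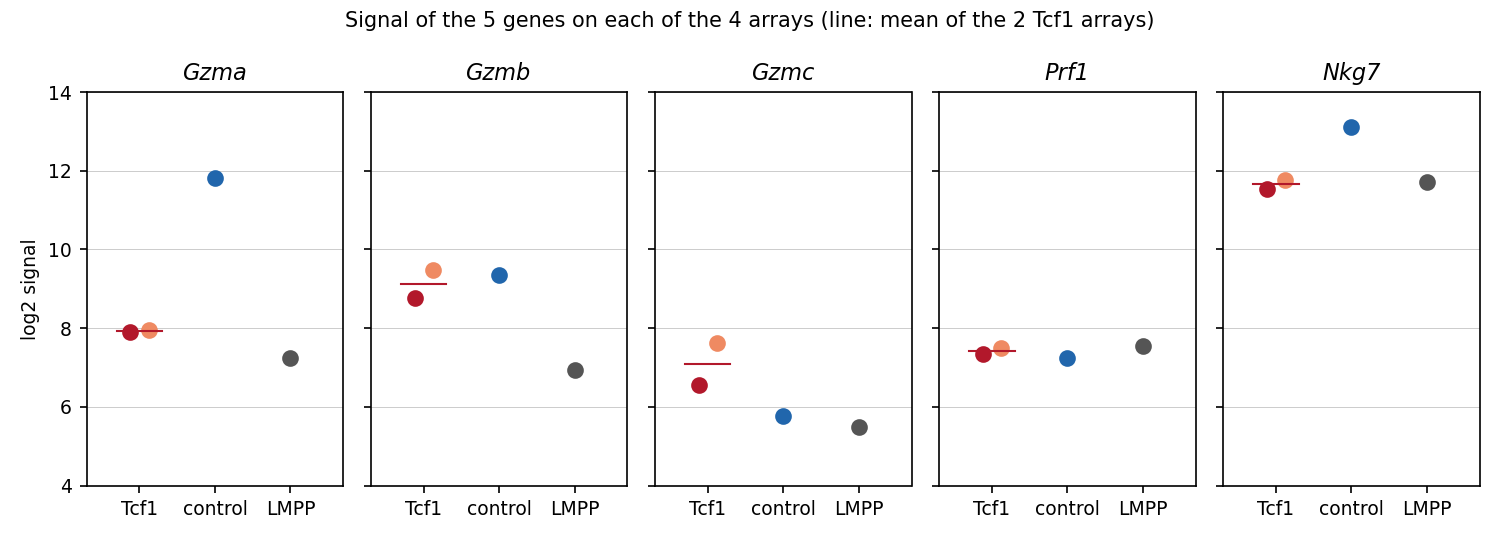
Log2 signal of Gzma, Gzmb, Gzmc, Prf1 and Nkg7 (y axis) in the 2 Tcf1 arrays, the control array and the LMPP array (x axis, 1 point per array, with a line at the Tcf1 mean). Gzma and Nkg7 stand out in the control array (11.82 and 13.10), Gzmb is low in the LMPP array alone (6.95), and Gzmc is highest in the Tcf1 arrays (6.56 and 7.61); heights of different genes come from different probe sets and are not comparable.

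Between Tcf1 and control cells, 2 of the 5 genes passed, Gzma and Nkg7, both lower in Tcf1 cells, where 4.38% of all 19938 genes passed in either direction, 2.49% lower and 1.9% higher. The median difference of the 5 was -0.21, against 0.017 over all genes. Between Tcf1 cells and LMPPs, 1 of the 5 passed, Gzmb, which was higher, where 3.06% of all genes passed, 1.75% higher and 1.31% lower. The median of the 5 was 0.66 there, against 0.0047 over all genes. In a mixed population, fewer cells that carry a transcript and less of it per cell give the same signal and cannot be told apart. The calls rested on the features tested and the variance model: when all 35399 probe sets were fitted together, adjusted p was 0.127 for Gzma and 0.2 for Nkg7 against control cells and 0.33 for Gzmb against LMPPs, and without moderation of the variances it was 0.795, 0.824 and 0.805 (limma fits). With an intensity trend in the variance, Gzmc passed as well, against control cells (adjusted p = 0.0261) and against LMPPs (adjusted p = 0.0101). Over genes above the 25th percentile of mean level it passed too (adjusted p = 0.0133 and 0.0043, limma), and so did Gzma against LMPPs (adjusted p = 0.0412, limma).

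**Figure D2:**
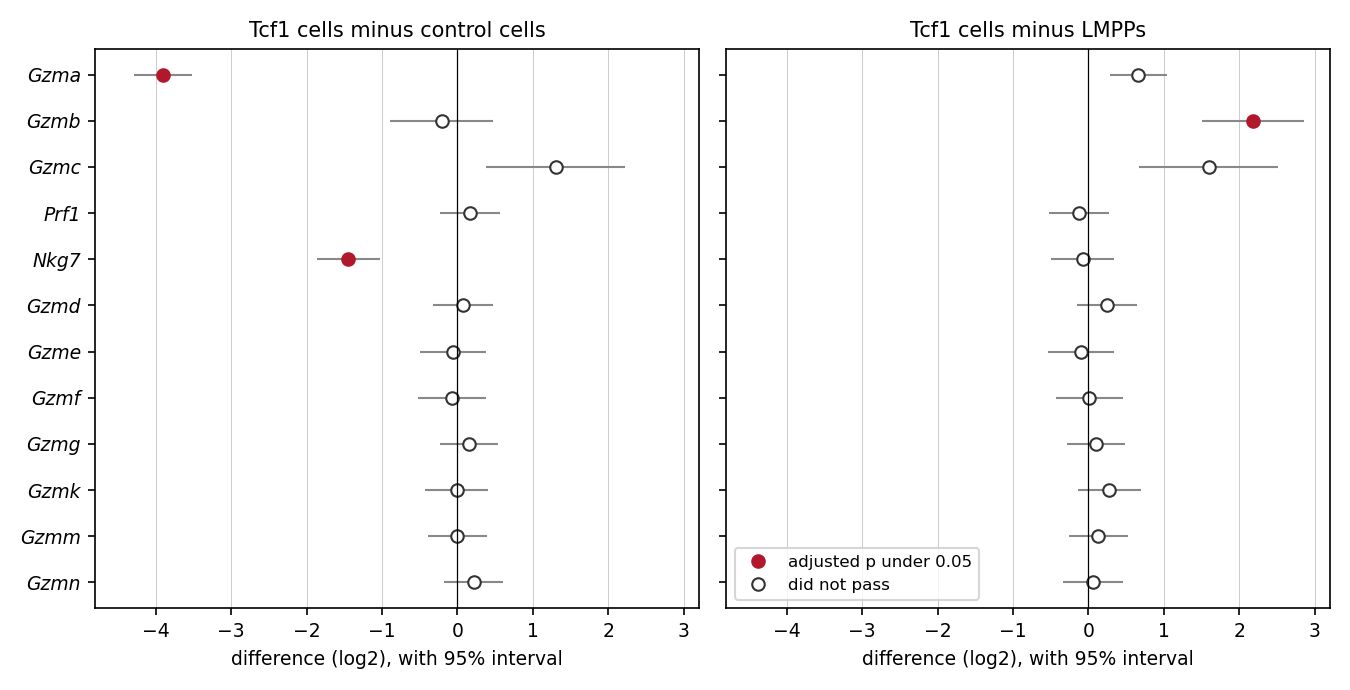
Differences on the log2 scale (x axis) of Tcf1 cells from control cells (left) and from LMPPs (right) for the 5 genes and the 7 other granzymes, with 95% intervals from the limma fit; filled points passed at an adjusted p under 0.05. Gzma (-3.91) and Nkg7 (-1.45) are filled on the left and Gzmb (2.18) on the right, and the other granzymes lie near 0 in both panels.

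Control cells were set against LMPPs to ask how the same genes differed after culture with Notch ligand, with 1 array each and therefore no test. This comparison shares the control array with the first comparison above and the LMPP array with the second. Gzma was 4.57 higher in control cells on the log2 scale (23.7-fold), the 13th largest increase among all genes, Gzmb was 2.39 higher (5.25-fold) and Nkg7 1.38 higher (2.60-fold). Gzmc (0.29) and Prf1 (-0.28) differed by less than 2-fold. At least 2-fold apart were thus 3 of the 5, all higher in control cells, where 5.53% of all genes were at least 2-fold apart with 3.17% higher and 2.36% lower.

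The other granzymes showed none of these patterns. Gzmd, Gzme, Gzmf, Gzmg, Gzmk, Gzmm and Gzmn all had a probe set, and 0 of 7 passed in either comparison in limma (0 of 7 at an unadjusted p under 0.05 as well). Of all genes, 4.38% passed against control cells and 3.06% against LMPPs. Their differences ran from -0.07 to 0.21 between Tcf1 and control cells and from -0.10 to 0.28 between Tcf1 cells and LMPPs, with no gene at least 2-fold apart between control cells and LMPPs. Signals ran from 4.42 to 6.91 on all arrays, and without detection calls it is not known whether they were above background. Gzmk, the neighbour of Gzma on chromosome 13, read 6.68 and 6.47 in Tcf1 cells, 6.59 in control cells and 6.30 in LMPPs, and differed from control cells by -0.012 (SE 0.18).

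Gzmb and Gzmc are next to each other on mouse chromosome 14, at one end of a run of 15 protein-coding genes in RefSeq order (GRCm38.p6) that starts with Cma1, holds mast cell proteases and Ctsg, and ends with Gzmb. Of the 13 measured genes of the run, 7 were granzymes. The 5 granzymes between Ctsg and Gzmc (Gzme, Gzmd, Gzmg, Gzmn and Gzmf) stayed between 4.42 and 5.87 on all arrays. At the other side of the granzymes, Mcpt8, a basophil protease, read 6.88 and 7.10 in Tcf1 cells, 8.83 in control cells and 9.30 in LMPPs, and it was lower in Tcf1 cells than in both (-1.83, adjusted p = 0.0026, and -2.31, adjusted p = 0.00136, limma). Ctsg, cathepsin G of neutrophil granules, fell by 1.20 in Tcf1 cells against LMPPs (adjusted p = 0.0169, limma) and differed from control cells by 0.44 (adjusted p = 0.331, limma). Elane and Prtn3, granule proteases outside the run, were higher in Tcf1 than in control cells (1.66, adjusted p = 0.00587, and 2.82, adjusted p = 4.01e-04, limma). Elane was lower than in LMPPs (-2.53, adjusted p = 0.00142, limma). Of 8 such proteases, with Ctsg and those of mast cells counted, 2 were higher and 1 lower than in control cells. Against LMPPs, 0 were higher and 3 lower. Among all genes 4.38% and 3.06% passed. Next to Gzmb on its far side, Atp12a, an ion pump subunit, differed by 0.15 from control cells and by 0.02 from LMPPs and did not pass.

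**Figure D3:**
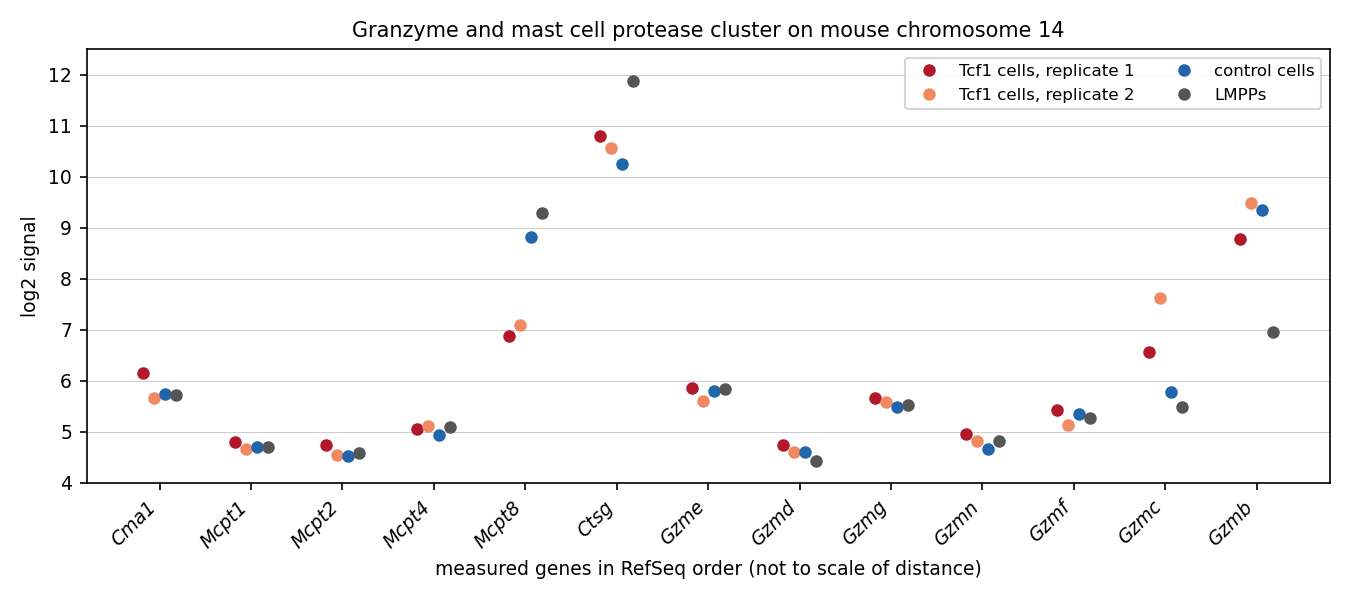
Log2 signal (y axis) of the 13 measured genes of the protease cluster on chromosome 14 in RefSeq order (x axis, distances not to scale), 1 point per array. The arrays separate at Mcpt8, Ctsg, Gzmc and Gzmb, while the 5 granzymes from Gzme to Gzmf lie between 4.42 and 5.87 in all of them.

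Of 9 measured genes of granzyme maturation and the granule matrix, 1 was higher and 0 were lower in Tcf1 cells than in control cells (median 0.24), and 1 was higher and 0 were lower than in LMPPs (median 0.14). Over all genes, 4.38% passed against control cells and 3.06% against LMPPs, with medians of 0.017 and 0.0047. No list was tested as a set, here or below. Ctsc, the peptidase that activates granzymes by removing a dipeptide, read 11.22 and 11.39 in Tcf1 cells, 10.68 in control cells and 11.38 in LMPPs, and it did not pass in either comparison (0.62 and -0.07). Srgn, the serglycin proteoglycan that holds granzymes in the granule, was between 13.43 and 13.61 on all arrays. Ctsh, a cathepsin that can also process granzyme B, was higher in Tcf1 than in control cells by 1.86 (adjusted p = 0.0257, limma). Igf2r, a mannose 6-phosphate receptor that sorts granzymes to granules, was higher in Tcf1 cells than in LMPPs by 2.08 (adjusted p = 0.0017, limma).

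In the machinery of granule release, 3 of 11 genes were lower and 0 higher in Tcf1 cells than in control cells (median -0.25), and 2 were higher and 0 lower than in LMPPs (median -0.05). The shares of all genes that passed were 4.38% and 3.06%. Sytl3, a synaptotagmin-like protein of the family that tethers granules to membranes through Rab27, read 7.35 and 7.96 in Tcf1 cells, 10.38 in control cells and 6.26 in LMPPs. It was thus highest in the control array, intermediate in the Tcf1 arrays and lowest in the LMPP array, and differed from control cells by -2.72 (adjusted p = 0.00242, limma) and from LMPPs by 1.39 (adjusted p = 0.04, limma). Sytl2 of the same family had the same order, with 7.77 and 8.25 in Tcf1 cells, 9.26 in control cells and 6.46 in LMPPs (differences of -1.25, adjusted p = 0.0287, and 1.56, adjusted p = 0.0159, limma). Lyst, a regulator of lysosome size, was lower in Tcf1 than in control cells by a difference of -1.01 (adjusted p = 0.0365, limma). The priming factor Unc13d, Rab27a, Stx11 and Stxbp2 did not pass in either comparison, with differences from control cells of -0.65, -0.25, 0.65 and -0.10.

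None of 5 measured serpins that can inhibit granule proteases passed in limma, with medians of 0.35 against control cells and 0.71 against LMPPs. An unadjusted p under 0.05 was found for 2 against control cells and 4 against LMPPs, and for 2809 and 2900 of all 19938 genes. Serpinb9, the inhibitor of granzyme B, read 7.54 and 8.72 in Tcf1 cells, 6.77 in control cells and 7.14 in LMPPs, and its replicates were wide apart. Serpinb6b read 8.76 and 9.60 in Tcf1 cells, 10.60 in control cells and 7.98 in LMPPs, and differed from control cells by -1.42 without passing (adjusted p = 0.0673, limma).

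Other effectors moved in both directions. Of 10, 2 were higher and 1 lower in Tcf1 than in control cells (median 0.05), and 2 were higher and 0 lower than in LMPPs (median 0.10). Among all genes 4.38% and 3.06% passed. Ccl5, a chemokine of cytotoxic lymphocytes, read 10.30 and 11.06 in Tcf1 cells, 8.76 in control cells and 8.57 in LMPPs, and was higher by 1.93 (adjusted p = 0.0163, limma) and 2.12 (adjusted p = 0.0142, limma). It shared with Gzmc the order of Tcf1 arrays above both single arrays. Tnfsf10, the death ligand TRAIL, was lower in Tcf1 than in control cells by a difference of -1.17 (adjusted p = 0.0383, limma), and Xcl1, another chemokine, was higher by 1.01 (adjusted p = 0.046, limma). Lta, lymphotoxin, was higher than in LMPPs by 0.97 (adjusted p = 0.0325, limma). Fasl lay between 5.88 and 6.00 and Ifng between 6.54 and 6.85 on all arrays, and neither passed.

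Of 15 genes that regulate cytotoxic genes in mature lymphocytes, 1 was higher and 0 lower in Tcf1 than in control cells (median 0.20), and 4 were higher and 2 lower than in LMPPs (median 0.35). Among all genes 4.38% and 3.06% passed. Tbx21, which encodes the T-box factor T-bet, lay between 6.78 and 6.999 on all arrays and did not pass. Eomes, its relative, read 6.81 and 6.96 in Tcf1 cells, 6.47 in control cells and 8.47 in LMPPs, and was lower in Tcf1 cells than in LMPPs by a difference of -1.58 (adjusted p = 0.00462, limma). Runx3 read 10.79 and 10.96 in Tcf1 cells, 11.65 in control cells and 11.71 in LMPPs, and neither difference passed (adjusted p = 0.0581 and 0.0578, limma). Il21r was also lower in Tcf1 cells than in LMPPs, by a difference of -1.32 (adjusted p = 0.0119, limma). Il2rb, the receptor chain shared by IL2 and IL15, rose by 1.77 against LMPPs (adjusted p = 0.0112, limma). Ikzf2 rose by 1.30 (adjusted p = 0.0133, limma) and Stat4 by 1.06 (adjusted p = 0.0451, limma) against LMPPs. Il2ra encodes the sort marker CD25 and its increase was set by the gate. It is 1 of the 4 genes counted above as higher than in LMPPs. Zeb2, a repressor found in effector lymphocytes and in myeloid cells, was higher in Tcf1 than in control cells by 2.47.

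**Figure D4:**
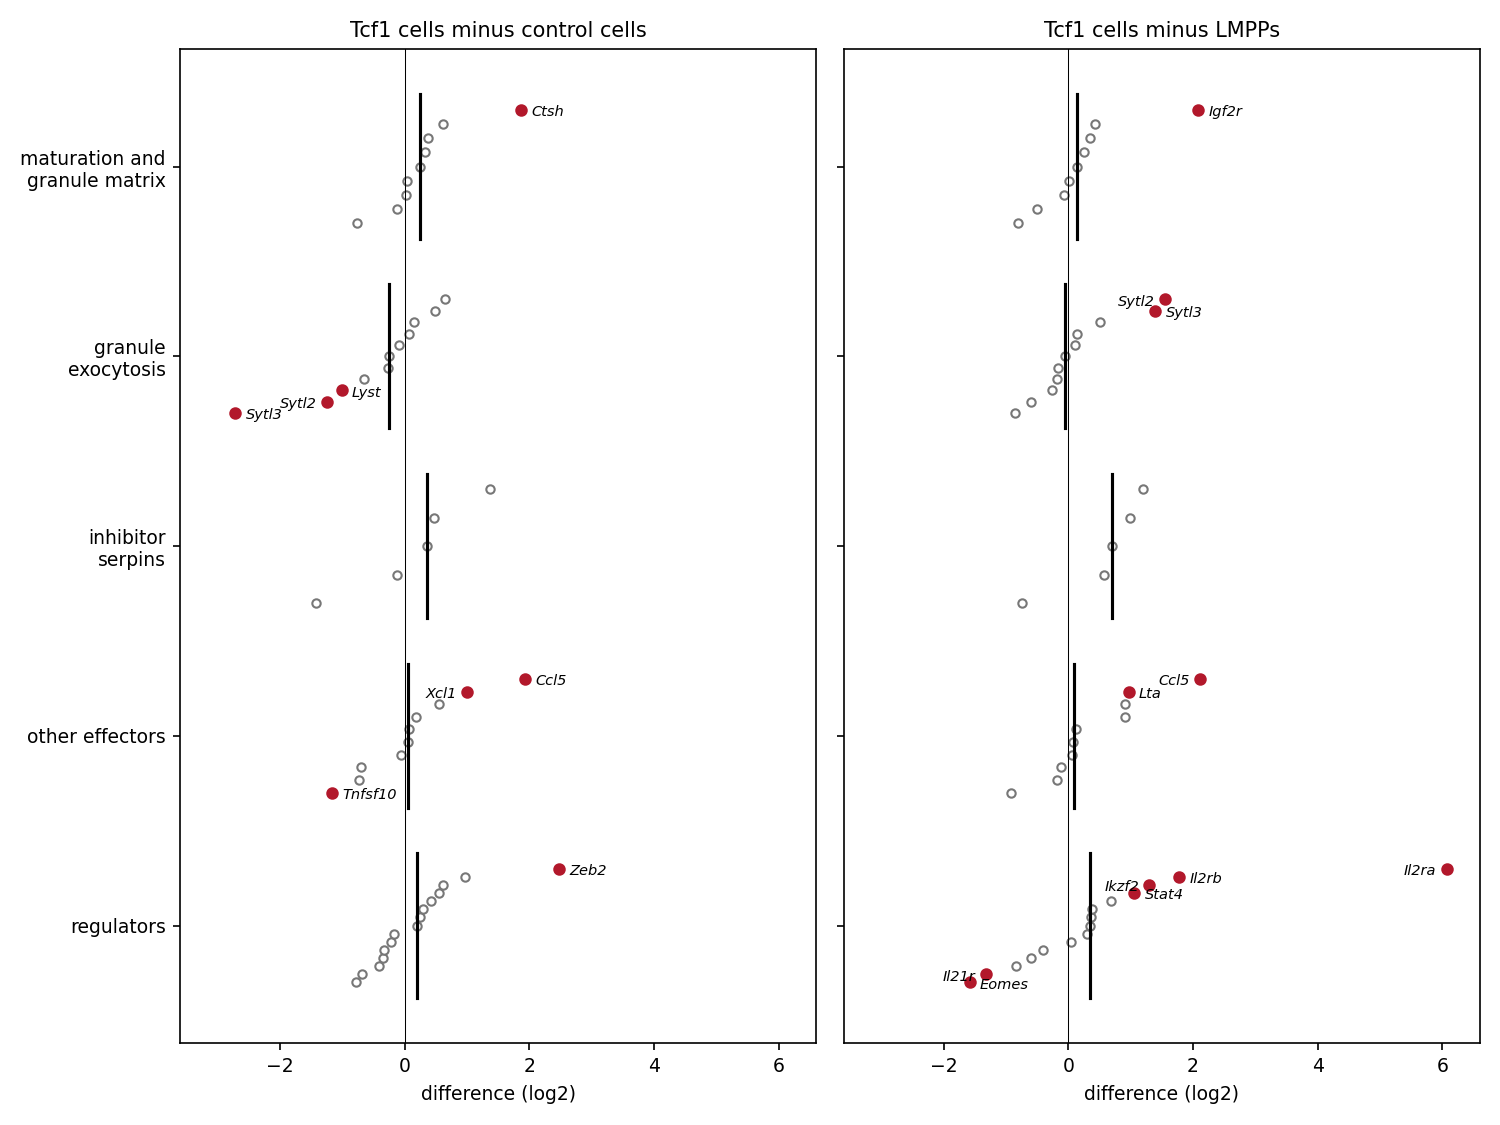
Differences on the log2 scale (x axis) of Tcf1 cells from control cells (left) and from LMPPs (right), 1 point per gene, in 5 groups of genes around granzymes (rows), with a vertical bar at each group's median; filled and named points passed at an adjusted p under 0.05 in limma. Sytl3 (-2.72), Sytl2 (-1.25) and Lyst (-1.01) are filled on the lower side on the left, and Sytl2 (1.56) and Sytl3 (1.39) on the higher side on the right.

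The profile of each gene over the 4 arrays, centred on its own mean, was compared with those of 18360 other named genes by root mean square distance on the log2 scale. Nearest to Gzma were Rag1 (0.33), a recombinase of antigen receptor genes, Fbp1 (0.42) and Khdc1a (0.44). Rag1 read 7.10 and 7.28 in Tcf1 cells, 10.42 in control cells and 6.68 in LMPPs, so it shared the high control array but with a smaller range. Nearest to Gzmb were Sla2 (0.14), an adaptor that dampens antigen receptor signals, Plxdc2 (0.20) and Tnfrsf18 (0.21), which encodes the receptor GITR, and nearest to Gzmc were Idi2 (0.074), Nr4a3 (0.10) and Lox (0.12). Nearest to Nkg7 were Trpc6 (0.027), Tasp1 (0.035) and Nectin1 (0.061), among 116 genes within 0.2. For Prf1, 12063 genes lay within 0.2, so no gene stood out as like it. With 4 arrays, such a likeness describes these arrays only.

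The Thy1 and CD25 genes of the culture gate followed the labels. Thy1 read 12.38 and 12.53 in Tcf1 cells, 12.98 in control cells and 8.13 in LMPPs, and Il2ra 12.91 and 12.99, 13.64 and 6.88. Tcf7, which encodes Tcf1, is not analysed here, and no check of the virus was made on it. Flt3, by which LMPPs were sorted, read 10.97 and 11.03 in Tcf1 cells, 6.75 in control cells and 11.91 in LMPPs. Kit, also in the LMPP gate, was lowest in LMPPs (9.68), with 11.17 and 11.27 in Tcf1 cells and 11.39 in control cells. Itgam, which encodes Mac1, read 7.44 and 7.70 in Tcf1 cells, 7.03 in control cells and 8.25 in LMPPs, and did not pass. Markers of other cells that can carry granzymes moved in part with the groups. Among all genes 4.38% passed against control cells and 3.06% against LMPPs. Of 11 measured NK cell markers, 3 were higher and 0 lower in Tcf1 than in control cells, Klrd1 (1.85), Tyrobp (1.86) and Fcgr3 (1.56), the last pair of which myeloid cells express too. The summed log2 signal of the 11 was 74.2 and 76.2 in Tcf1 cells, 67.7 in control cells and 69.9 in LMPPs. Against LMPPs, 1 of the 11 was higher, Itga2 (1.12, adjusted p = 0.0454, limma), and 0 were lower, with 6 at an unadjusted p under 0.05. The median difference of the list was 0.52 from control cells and 0.48 from LMPPs. The defining NK genes Ncr1 (5.62 and 5.87 in Tcf1 cells, 5.37 in control cells and 5.39 in LMPPs) and Klrb1c (4.67 and 4.82, 4.80 and 4.71) did not pass in either comparison, and whether they were above background is not known. Of 5 genes listed for CD8 T cells, the CD3 chain genes Cd3e, Cd3d and Cd3g are not particular to CD8 T cells. These CD3 genes were lower in Tcf1 than in control cells. The sums of the 5 were 33.0 and 33.1 in Tcf1 cells, 45.3 in control cells and 31.6 in LMPPs. Against LMPPs, 1 of the 5 was higher, Cd3g. The CD8 chain genes Cd8a (6.61 to 6.96 on all arrays) and Cd8b1 (6.33 to 6.37) did not pass in either comparison.

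Of 8 mast cell and basophil markers, 1 was lower in Tcf1 than in control cells, Mcpt8, where 4.38% of all genes passed. Against LMPPs 1 was higher and 1 lower, where 3.06% of all genes passed. The sums were 54.2 and 53.7 in Tcf1 cells, 55.7 in control cells and 54.4 in LMPPs. The riser was Cpa3, a mast cell carboxypeptidase, which read 11.60 and 11.87 in Tcf1 cells, 12.58 in control cells and 9.37 in LMPPs. Mcpt8 was the gene that was lower, with its highest signal in LMPPs (9.30), and the other 6 did not pass against LMPPs. Of 6 macrophage markers, 5 were higher and 0 lower in Tcf1 than in control cells, although the sort of both cultures removed cells with Mac1 or Gr1. Against LMPPs, 3 were higher (Adgre1 by 4.37, Lyz2 by 2.14 and Mrc1 by 1.17) and 0 lower. In control cells, with 1 array per group and no test, 5 of the 6 were at least 2-fold lower than in LMPPs and 0 higher. Among all genes, 2.36% were at least 2-fold lower there and 3.17% higher. The macrophage list had sums of 58.2 and 60.2 in Tcf1 cells, 44.1 in control cells and 51.9 in LMPPs. Of 9 neutrophil markers, 3 were higher and 0 lower in Tcf1 than in control cells, and 0 were higher and 6 lower than in LMPPs (sums of 73.5 and 73.3, 65.9, and 85.0). None of 4 plasmacytoid dendritic cell markers passed against control cells. Against LMPPs, 0 of the 4 were higher and 2 lower, Irf8 (-2.16, adjusted p = 0.00133, limma) and Tcf4 (-0.99, adjusted p = 0.0476, limma). Their sums were 35.9 and 36.6 in Tcf1 cells, 35.6 in control cells and 39.3 in LMPPs. The part of these cell types in the granzyme, perforin and Nkg7 signals was not tested.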

How the data were processed

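RNA from 4 samples was measured on Affymetrix whole-transcript arrays, after amplification of 250 ng with the Ambion WT Expression kit per the labels' protocols. The deposited values are log2 signal per probe set, made by the authors with RMA and Partek 6.5 per the submitters' processing notes. Base 2 was inferred from the use of RMA and from the range of 3.44 to 14.45. Which genome build was used is not given in the sources here. The number of arrays limits the precision, and detection calls were not used here.

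Of 35399 probe sets, 21789 carried 1 gene symbol in the platform annotation, and the brightest per gene was kept, which left 19938 genes. The 3 groups, as labelled, were fitted with limma 3.58.1 (R 4.3.3, empirical Bayes, Benjamini-Hochberg over all genes) at an adjusted p threshold of 0.05. "Rose", "fell", "higher" and "lower" of tested differences refer to genes that passed. Its residual spread came from the Tcf1 pair alone (1 degree of freedom), and the single arrays were assumed to vary like that pair. Control cells against LMPPs had no test. The method was tested on simulated data in which all arrays had the same spread. That simulation could not check whether the single arrays vary like the Tcf1 pair.

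The members and lists were chosen with earlier results of these data known. All 5 members are named, list genes where they passed (up to 4 per list and comparison) or where the list has at most 12 members, and the 3 genes nearest each member in profile, leaving out predicted, clone-named and small RNA genes. Neighbouring genes and further regulators were named after their values were seen. The motifs were chosen after the data were seen. Genes without a single-gene probe set (Cma2, Mcpt9, M6pr, Serpina3f, Serpina3g, Cd244 and Ly6a) are not analysed here. Alternatives were 2 renewed normalizations, a filter on dim genes, other probe sets, other variance models and each Tcf1 replicate left out.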

Additional observations from a re-analysis of the deposited data

How the results depend on the processing

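Of 95 alternative values for the 15 differences of the 5 genes, 11 lay on another side of the threshold than the reported ones. All 11 were among the tested differences. Those between control cells and LMPPs had no test, and only the renewed normalizations could change them. The 2 renewed normalizations gave 30 of the 95 and 0 of these changed sign, while the other 65 leave the difference itself as it was. Of 20 values with a Tcf1 replicate left out, 2 changed sign, Gzmb against control cells and Nkg7 against LMPPs, neither of which had passed. Fitting all 35399 probe sets left the differences of Gzma (-3.91) and Nkg7 (-1.45) from control cells and of Gzmb (2.18) from LMPPs unchanged but not past the threshold, as did the fit without moderation. Over all probe sets, the SE was 0.15 for Gzma, 0.18 for Nkg7 and 0.36 for Gzmb, against 0.16, 0.18 and 0.29 in the main fit. The variance moderation had 2.55 prior degrees of freedom there, against 5.78. The replicate difference had an SD of 0.547 over 11989 probe sets without a symbol, against 0.236 over the named genes. Over genes above the 25th percentile of mean level, Gzmc passed against control cells (1.30) and LMPPs (1.59), as it did with an intensity trend, and Gzma passed against LMPPs (0.66, adjusted p = 0.0412, limma). The cause of these changes was not tested. Genes called between Tcf1 and control cells numbered 874, or 1437 over brighter genes, 12 without moderation and 0 over all probe sets (3702 at an unadjusted p under 0.05 in limma). Between Tcf1 cells and LMPPs they numbered 610, or 1196 over brighter genes, 936 with the trend, 12 without moderation and 0 over all probe sets (3317 at an unadjusted p under 0.05). Control cells and LMPPs were at least 2-fold apart at 1102 genes, or at 1709 of all probe sets. With 1 Tcf1 replicate left out, no test was possible because no residual degree of freedom was left, and the differences from control cells ran from -3.93 to -3.88 for Gzma, -0.57 to 0.15 for Gzmb, 0.78 to 1.83 for Gzmc, 0.094 to 0.24 for Prf1 and -1.56 to -1.34 for Nkg7. Those from LMPPs ran from 0.64 to 0.69 for Gzma, 1.83 to 2.54 for Gzmb, 1.06 to 2.12 for Gzmc, -0.19 to -0.049 for Prf1 and -0.18 to 0.036 for Nkg7. No paired analysis was possible because the LMPP and control groups have 1 array each and share no replicate number by label. No signal could be set against background, since detection calls were not used.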

Other observations

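Beside the granzymes on chromosome 13, Esm1, which encodes the secreted proteoglycan endocan and lies next to Gzmk in RefSeq order, read 7.02 and 7.11 in Tcf1 cells, 8.37 in control cells and 6.19 in LMPPs. It was lower in Tcf1 than in control cells by a difference of -1.31 (adjusted p = 0.00687, limma) and higher than in LMPPs by 0.87 (adjusted p = 0.0415, limma), the order that Gzma had over the arrays. Gzmk, which lies between Gzma and Esm1, did not pass in either comparison. On the other side of Gzma, Gpx8 differed by 0.047 from control cells and by 0.68 from LMPPs, Cdc20b by -0.027 and 0.14, and neither gene passed. Near Nkg7 on chromosome 7, Siglecg, a sialic acid receptor best known from B cells, was higher in Tcf1 than in control cells by 0.97 (adjusted p = 0.0227, limma), the opposite direction to Nkg7. The adjacent genes Lim2 (-0.11) and Cldnd2 (-0.56) did not pass. These neighbours were singled out after their values were seen.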
